A study of Mus musculus with 4 samples.

Results

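Voltage-gated sodium and calcium channels are assembled from a large pore-forming alpha subunit, which carries the voltage sensors and the ion path, and smaller auxiliary subunits that set how much of the pore reaches the membrane and how it opens and closes. Sodium channels drive the upstroke of the action potential. Calcium channels turn depolarization into calcium entry, which supports transmitter release, gene regulation and, in migrating interneurons of the embryonic forebrain, the calcium transients that accompany movement. The gene set described here held every gene of the deposited table whose symbol names a pore-forming sodium channel subunit, a sodium channel beta subunit, a pore-forming calcium channel subunit, a calcium channel alpha2delta, beta or gamma subunit, or *Nalcn*, the related sodium leak channel. This gave 41 of 56883 genes, 21 of them pore-forming and 20 auxiliary.

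RNA was measured in tdTomato-positive cells sorted at embryonic day E14.5 from the mouse basal telencephalon, where newly born somatostatin (SST) interneurons migrate toward the cortex. Control embryos carried *Sst-Cre/tdTomato*, and *Dnmt1* KO embryos carried *Sst-Cre/tdTomato/Dnmt1 loxP2*, so both groups shared the Cre driver and the reporter and differed in the floxed allele of *Dnmt1*, the gene of a DNA methyltransferase. There were 2 libraries per genotype, each from cells of multiple embryos, with RNA isolated from 50000 cells pooled per genotype. *Sst-Cre* acts once *Sst* is switched on, so the deletion was restricted to cells that had expressed *Sst*, and embryos were pooled, so the spread between libraries is not a spread between single animals.

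The libraries held 6970247 to 8376711 reads on genes, and values are normalized counts, that is, reads divided by 1 size factor per library. *Dnmt1* itself had normalized counts of 2238 and 2341 in the controls and 2164 and 2210.3 in the *Dnmt1* KO (log2 fold change -0.066, SE 0.054, limma adjusted p = 0.461). That count covers the whole gene and does not separate transcripts with and without the floxed exons, so it does not check the deletion. All 10 SST interneuron marker genes were higher in the *Dnmt1* KO (median log2 fold change 0.55), and their summed normalized counts were 22097 and 22219.6 in the controls against 32996 and 33513 in the *Dnmt1* KO. Markers of other cells moved the opposite way. The 7 blood markers tested were all lower (median -2.09, summed counts 2591 and 2400.1 against 576 and 590), as were 9 of 10 vascular, fibroblast and microglia markers (median -1.16, 701 and 751 against 309 and 355), 6 of 8 excitatory lineage markers (median -0.93, 2971 and 3023 against 1629 and 1491), 6 of 6 markers of cycling cells (median -0.51, 5619 and 5486 against 3941 and 3990.2) and 4 of 6 of striatal projection neurons (median -0.53, 2931 and 3035 against 2179 and 2080.3). Of 8 radial glia markers 6 were lower and 1, *Sox2*, was higher (median -0.82, 10148 and 10242 against 6024 and 6226). Of 3 tested oligodendrocyte lineage markers, 0 passed with limma, edgeR or DESeq2 and 1 had an unadjusted p under 0.05 (median -0.53, summed counts 175 and 144 against 112 and 98.3). No marker was at 0 in all 4 libraries, so the sorted material held RNA of other cells in both genotypes, at lower summed counts in the *Dnmt1* KO. In sorted pools, fewer cells of a type and less RNA per cell cannot be told apart, and the part of these markers in the channel results below was not tested.

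A residue of the selectivity filter in the third repeat of the protein differs between classes of pore-forming subunits. It is lysine in sodium channels and in the leak channel, glutamate in high-voltage-activated calcium channels and aspartate in T-type channels. The coding bases around it are shown for an example of each class, to mark a position at which these classes differ. They were read 5′ to 3′ on the coding strand from GENCODE transcripts on GRCm39, with the filter codon in capitals. The residue was itself used to find the codon, so its identity is not a result. The matching stretch was found in 20 of the 21 pore-forming genes, the exception being *Scn7a*.
Scn1a (sodium pore): gttgccacatttAAGggctggatggat
Scn3a (sodium pore): gtggccacattcAAAggctggatggat
Cacna1b (N-type calcium pore): gtgtccacgggaGAGgggtggcccatg
Cacna1i (T-type calcium pore): ttggcctccaagGATggctgggtgaac
Nalcn (leak pore): gttctgtccttgAAAggctgggtagaa
These bases lie within chr2:66118097-66119220 for *Scn1a*, chr2:65299386-65300272 for *Scn3a*, chr2:24540640-24541118 for *Cacna1b*, chr15:80260996-80261022 for *Cacna1i* and chr14:123540325-123540351 for *Nalcn*. The gene is on the plus strand for *Cacna1i* and on the minus strand for the others, and an intron interrupts the stretch in *Scn1a*, *Scn3a* and *Cacna1b*.

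Of the 41 genes, 32 averaged 10 or more normalized counts over the libraries and were tested, 16 pore-forming and 16 auxiliary. In the *Dnmt1* KO 19 of the 32 were higher and 1 was lower at a limma adjusted p under 0.05, against a background of 8.3% of all 14323 tested genes called higher and 8.99% called lower. The median log2 fold change of the 32 genes was 0.37, compared with -0.0033 over all tested genes, and 27 of the 32 were above 0, compared with 49.5% of all tested genes. Both *Dnmt1* KO libraries lay above both controls for 25 members (background 28.4%) and below both for 3 (29.0%). With DESeq2 on the recovered reads, the tool of the study, 9 members were higher and 1 lower (background 4.08% and 4.42%), and with edgeR 19 and 1 (8.56% and 9.09%).

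Pore-forming and auxiliary subunits had close medians but differed in how many passed. Among pore-forming subunits 12 of 16 were higher and 0 lower (median log2 fold change 0.36, 13 higher and 0 lower at an unadjusted p under 0.05, and 0 lower with DESeq2 or edgeR), and among auxiliary subunits 7 of 16 were higher and 1 lower (median 0.37). The difference in these shares was not tested. The background given above is for the adjusted p. The share of all tested genes at an unadjusted p under 0.05 was not counted in this fit. The normalized counts of all pore-forming members summed to 7827 and 7637 in the controls and 9943 and 10005 in the *Dnmt1* KO, 1.29-fold higher on average. For the auxiliary members the sums were 6763 and 6406 against 7217 and 7499, 1.12-fold higher.

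**Figure D1:**
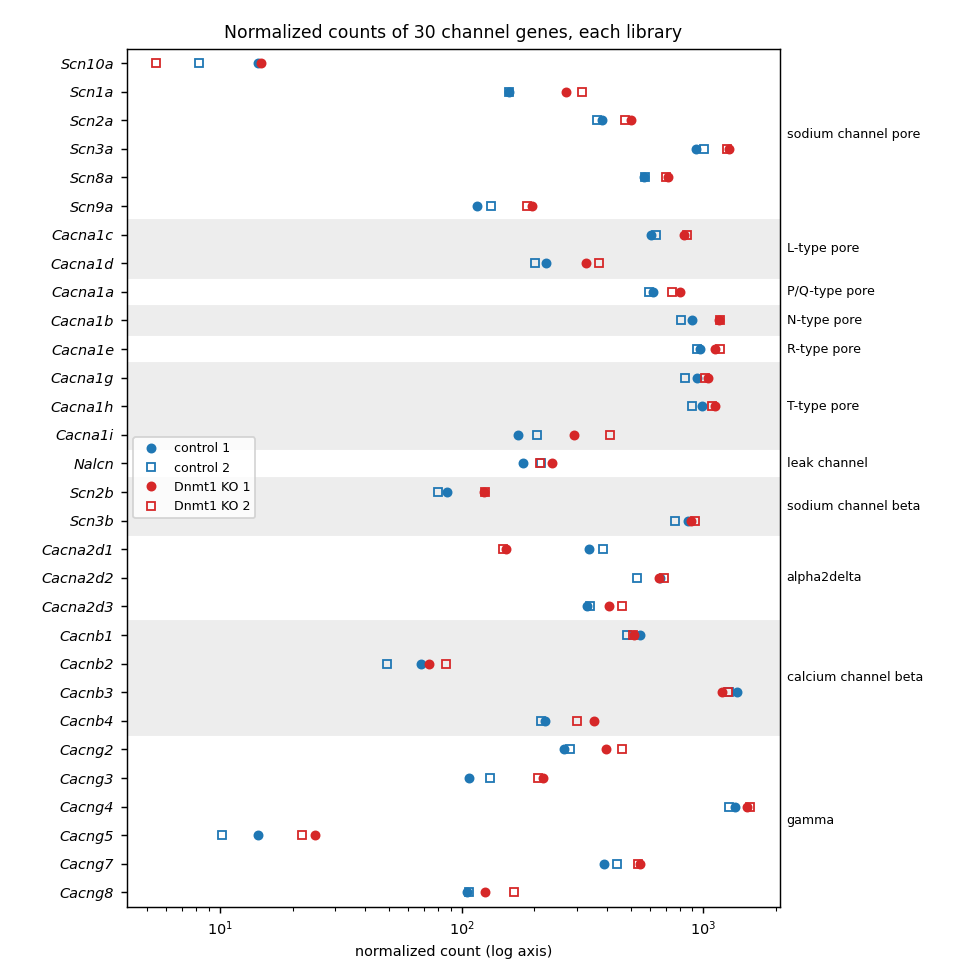
Normalized count of 30 tested channel genes in each library, on a log axis, with control and *Dnmt1* KO libraries as separate symbols and genes grouped by subunit family. The *Dnmt1* KO points lie to the right of both controls for 24 of the 30 genes, and *Cacna2d1* is the clearest gene with its points on the left.

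Of 7 tested sodium channel pores 5 were higher, among them all those known as the main sodium pores of the brain, and 2 did not pass. *Scn1a*, the pore most used by fast-spiking interneurons of the mature brain, had normalized counts of 158 and 157 in the controls and 269 and 314 in the *Dnmt1* KO. Both *Dnmt1* KO libraries were far above the controls, which nearly coincided, and the log2 fold change was 0.88 (SE 0.13, limma adjusted p = 0.000209), the largest of the sodium pores. *Scn3a*, the main sodium pore of the embryonic brain, had 933 and 1005 in the controls and 1279 and 1249.9 in the *Dnmt1* KO. The groups did not overlap (log2 fold change 0.38, SE 0.068, adjusted p = 0.00108). *Scn2a*, which serves the early axon, had 379 and 361 against 502 and 475, again without overlap (0.40, SE 0.093, adjusted p = 0.00758). *Scn2a* and *Scn1a* also stayed under 0.05 with each library left out in turn, as did *Scn3a* (highest adjusted p 0.0489, 0.00258 and 0.0129, in that order).

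*Scn8a*, the pore of mature axon initial segments, had normalized counts of 569 and 576 in the controls and 712 and 700.4 in the *Dnmt1* KO. *Scn9a*, widely known from peripheral sensory neurons, had 115 and 133 against 195 and 187. Neither gene overlapped between genotypes, with log2 fold changes of 0.30 (SE 0.078, adjusted p = 0.0143) and 0.62 (SE 0.15, adjusted p = 0.0081). Both calls depended on single libraries: the adjusted p of *Scn8a* reached 0.0633 without *Dnmt1* KO 1, and that of *Scn9a* 0.0654 without control 1. With DESeq2 the adjusted p was 0.0829 for *Scn2a*, 0.124 for *Scn8a* and 0.107 for *Scn9a*.

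*Scn10a*, a sensory neuron pore, had normalized counts of 14.3 and 8.17 in the controls and 14.8 and 5.46 in the *Dnmt1* KO, with wide overlap (log2 fold change -0.23, adjusted p = 0.84). *Scn4a*, the skeletal muscle pore, had 0 reads in every library, and *Scn7a* and *Scn11a* were below the filter.

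On chromosome 2 the neighbours *Scn3a* and *Scn2a* (chr2:65287462-65597795, GRCm39) and *Scn1a*, *Scn9a* and *Scn7a* (chr2:66101122-66615367) held 4 tested genes, and all 4 were higher. *Scn8a* is the only sodium pore on chromosome 15 (chr15:100767739-100943819).

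Per transcript length, as reads per kilobase of the transcript with the longest coding sequence, scaled to the library's total (RPKM), the order of the sodium pores was the same in both genotypes down to *Scn9a*. *Scn3a* had the highest level, 13.4 ± 0.78 in controls and 17.1 ± 0.24 in the *Dnmt1* KO (SD, n = 2 each), followed by *Scn8a* (6.70 ± 0.098 and 8.09 ± 0.078), *Scn2a* (5.46 ± 0.15 and 7.05 ± 0.26), *Scn1a* (2.42 ± 0.012 and 4.39 ± 0.48) and *Scn9a* (1.69 ± 0.18 and 2.55 ± 0.074). Within each genotype each step of this order exceeded the SDs. The share of *Scn3a* in the summed level of sodium pores was 43.6% ± 1.46 in controls and 42.7% ± 0.207 in the *Dnmt1* KO, a difference within the SD. The share of *Scn1a* was 3.10 percentage points higher in the *Dnmt1* KO than the 7.88% ± 0.156 of the controls (SD in the *Dnmt1* KO 1.31).

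**Figure D2:**
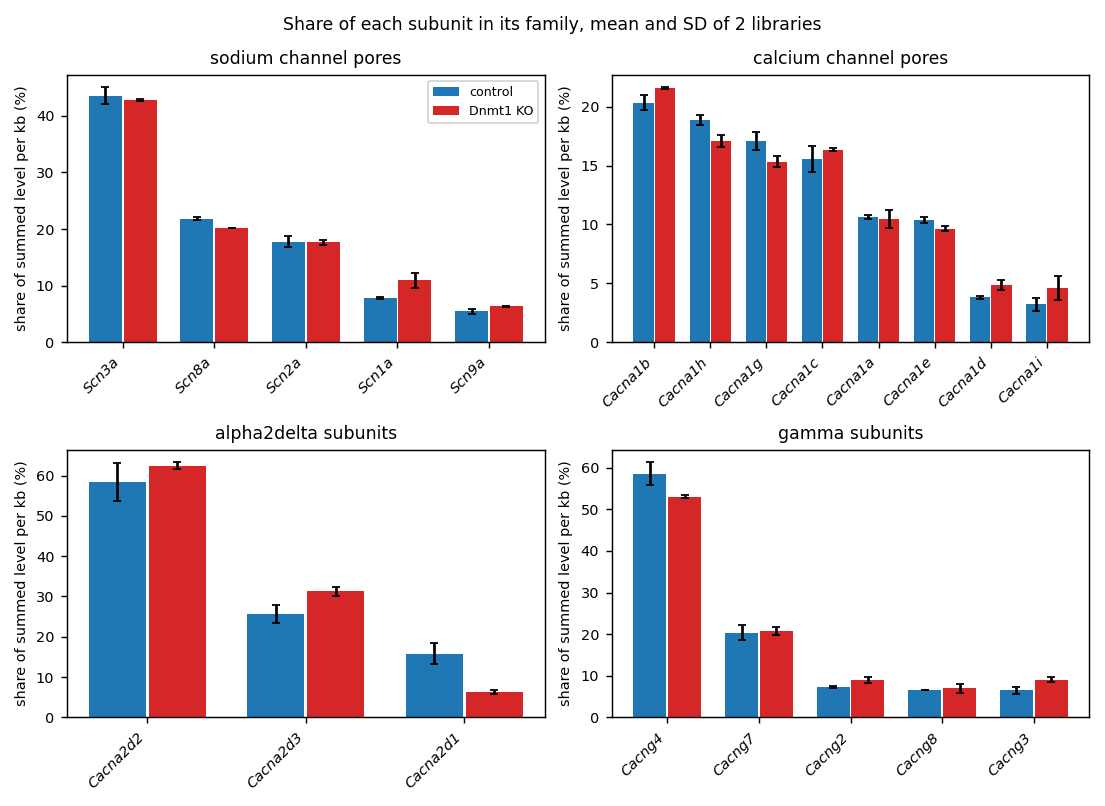
Share of each gene in the summed level per transcript length of its family, in percent (bars, mean; whiskers, SD of 2 libraries), for sodium pores, calcium pores, alpha2delta and gamma subunits in control (blue) and *Dnmt1* KO (red); genes under 1% in both genotypes and 1 sodium pore are left out. *Scn3a* leads the sodium pores in both genotypes, while *Cacna2d1* is at 15.8% of the alpha2delta level in controls and 6.25% in the *Dnmt1* KO.

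Among calcium channel pores, 7 of the 8 tested genes were higher in the *Dnmt1* KO and none was lower by limma, edgeR or DESeq2. All 8 were higher at an unadjusted p under 0.05, for which no background was counted. The L-type pores, which couple calcium entry to gene expression, were both higher. *Cacna1c* had normalized counts of 609 and 636 in the controls and 833 and 854 in the *Dnmt1* KO, and *Cacna1d* had 223 and 201 against 326 and 372. Neither gene overlapped between genotypes, and the log2 fold changes were 0.44 (SE 0.076, limma adjusted p = 0.000924) and 0.71 (SE 0.12, adjusted p = 0.000636). The retinal and muscle L-type pores, *Cacna1f* and *Cacna1s*, were below the filter.

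The presynaptic pores were higher as well. *Cacna1b*, the N-type pore of transmitter release and neuronal migration, had normalized counts of 896 and 811 in the controls and 1158 and 1173 in the *Dnmt1* KO (log2 fold change 0.45, SE 0.072, adjusted p = 0.000466). *Cacna1a*, the P/Q-type pore, had 620.1 and 597 against 804 and 741 (0.34, SE 0.080, adjusted p = 0.00755). *Cacna1e*, the R-type pore, had 967 and 943 against 1119.5 and 1170.2 (0.26, SE 0.067, adjusted p = 0.0141). None of these genes overlapped between genotypes, but the calls of *Cacna1a* and *Cacna1e* depended on single libraries. Without *Dnmt1* KO 1 the adjusted p of *Cacna1a* was 0.0653, that of *Cacna1e* was 0.0979 without *Dnmt1* KO 2, and with DESeq2 they were 0.0554 and 0.0868.

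The T-type pores open near the resting potential. *Cacna1i* had normalized counts of 172 and 205 in the controls and 291 and 410 in the *Dnmt1* KO, which is 1.83-fold higher (log2 fold change 0.88, SE 0.15, adjusted p = 0.00091). The *Dnmt1* KO libraries were further apart than the controls but both lay above them. *Cacna1h* had 984 and 899 against 1113 and 1086 (0.22, SE 0.071, adjusted p = 0.0397, DESeq2 adjusted p = 0.206), and *Cacna1g* had 945 and 839 against 1044 and 1017. The controls and the *Dnmt1* KO did not overlap for either, yet *Cacna1g* missed the threshold (log2 fold change 0.21, 95% interval 0.05 to 0.37, adjusted p = 0.0676) and *Cacna1h* lost its call without *Dnmt1* KO 2, *Dnmt1* KO 1 or control 2 (highest adjusted p 0.227). *Nalcn*, which carries a resting sodium leak, overlapped between genotypes with 179 and 213 against 237 and 211 (0.19, 95% interval -0.094 to 0.48, adjusted p = 0.371).

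Per length of the transcript with the longest coding sequence the most abundant calcium pores were *Cacna1b* (16.4 ± 1.05 in controls and 21.9 ± 0.253 in the *Dnmt1* KO), *Cacna1h* (15.2 ± 0.862 and 17.4 ± 0.259), *Cacna1g* (13.8 ± 1.07 and 15.6 ± 0.247) and *Cacna1c* (12.5 ± 0.471 and 16.6 ± 0.341). Among neighbours in this order the control libraries overlapped for *Cacna1b* and *Cacna1h* only, and in the *Dnmt1* KO *Cacna1c* ranked above *Cacna1g*. This order depends on the transcript taken. With the longest annotated transcript the control levels of *Cacna1b* were 12.2 and 11.1, below *Cacna1h* (15.8 and 14.6) and also below both control libraries of *Cacna1g*, and those of *Cacna1c* were 6.17 and 6.51, below *Cacna1a* (8.68 and 8.43) and *Cacna1e* (8.41 and 8.28). *Cacna1d* and *Cacna1i* were the least abundant tested calcium pores with either transcript (3.08 ± 0.203 and 2.58 ± 0.34 in controls, 4.95 ± 0.473 and 4.70 ± 1.14 in the *Dnmt1* KO) and, with log2 fold changes of 0.71 and 0.88, they had the largest differences.

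**Figure D3:**
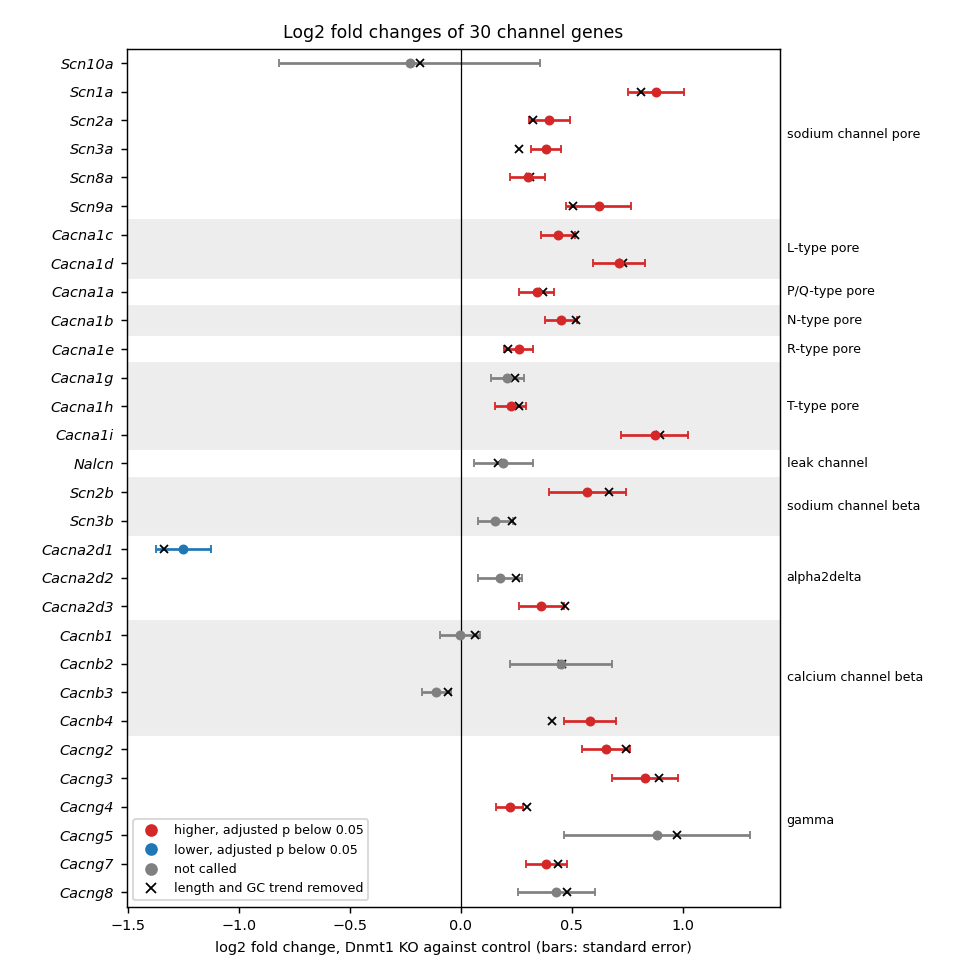
Log2 fold change of 30 tested channel genes in the *Dnmt1* KO against control by limma (dots, coloured by call; whiskers, SE), with crosses for the fit with the length and GC trend removed. Of the pore-forming genes 12 were called higher and none lower, and *Cacna2d1* at -1.25 is the only member called lower by this test.

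The auxiliary subunits gave a mixed picture, led by a fall of *Cacna2d1*. The alpha2delta subunits are extracellular proteins that carry calcium channels to the surface, and *Cacna2d1* encodes the receptor of gabapentinoid drugs. Its normalized counts were 337 and 384 in the controls and 153 and 149 in the *Dnmt1* KO. The *Dnmt1* KO libraries were close to each other and far below the controls, with a log2 fold change of -1.25 (SE 0.12, limma adjusted p = 5.3e-06, DESeq2 adjusted p = 3.59e-08) and an adjusted p of at most 0.000443 with any library left out. *Gm43490*, a transcript annotated inside *Cacna2d1* on the same strand, had 20.6 and 33.7 against 12.8 and 13.1, which did not pass (log2 fold change -0.97, adjusted p = 0.124). *Cacna2d1* is also expressed outside interneurons, and the lower markers of other cells given above moved in the same direction, their part not tested.

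*Cacna2d3*, another alpha2delta gene, had normalized counts of 331 and 341 in the controls and 406 and 460 in the *Dnmt1* KO (0.36, SE 0.10, adjusted p = 0.0211). The groups did not overlap, but the adjusted p was 0.176 with DESeq2 and reached 0.18 with a library left out. *Cacna2d2*, the most abundant of the family, had 659 and 533 against 653 and 687 (0.18, adjusted p = 0.239), with overlap. The summed alpha2delta counts were 1331 and 1259 against 1212 and 1299, that is 0.97-fold, while the share of *Cacna2d1* in the summed level per length was 15.8% ± 2.52 in controls and 6.25% ± 0.438 in the *Dnmt1* KO. The share of *Cacna2d3* was 25.7% ± 2.30 and 31.2% ± 1.18.

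The beta subunits bind the pore inside the cell and shield it from degradation. Only *Cacnb4* was called higher, with normalized counts of 221 and 212 in the controls and 351 and 301 in the *Dnmt1* KO (0.58, SE 0.12, adjusted p = 0.00309). Both *Dnmt1* KO libraries lay above the controls, and the call remained with each library left out (highest adjusted p 0.0261). *Cacnb3*, the most abundant auxiliary gene per length (68.3 ± 3.19 in controls and 61.9 ± 2.62 in the *Dnmt1* KO), had 1379.9 and 1280.2 against 1197 and 1267. The *Dnmt1* KO libraries were both below the controls but the difference did not pass (-0.11, adjusted p = 0.297). The rank of *Cacnb3* depends on the transcript taken. Per length of the longest annotated transcript it was above *Cacng4* in controls (53.0 and 49.6 against 47.4 and 45.1). In the *Dnmt1* KO it was then below *Cacng4* (45.1 and 47.9 against 51.7 and 53.8). *Cacnb1* had 547 and 485 against 519 and 509, fully overlapping, with a log2 fold change of -0.0027 (95% interval -0.2 to 0.19, adjusted p = 0.99). *Cacnb2* had 68.0 and 49.0 against 73.0 and 86.3 (0.45, adjusted p = 0.203). Summed over the family, the beta subunits had 2216 and 2027 in the controls and 2140.4 and 2163 in the *Dnmt1* KO, which overlapped. The sums over all calcium pores, T-type pores included, were 1.28-fold higher on average.

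The gamma subunits include a muscle calcium channel subunit, *Cacng1*, and the transmembrane proteins that bring AMPA-type glutamate receptors to synapses. Of 6 tested genes 4 were higher. *Cacng2*, the gene of stargazin, had normalized counts of 264 and 279.7 in the controls and 397 and 462 in the *Dnmt1* KO (0.65, SE 0.11, adjusted p = 0.000646). *Cacng3* had 107 and 131 against 217 and 207 (0.83, SE 0.15, adjusted p = 0.00121). Neither gene overlapped between genotypes, and both calls remained with each library left out (highest adjusted p 0.00805 and 0.0166).

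*Cacng4*, the most abundant gamma gene, had normalized counts of 1358 and 1280.2 in the controls and 1509 and 1564 in the *Dnmt1* KO (0.22, SE 0.063, adjusted p = 0.0238). *Cacng7* had 387 and 440 against 545 and 534 (0.39, SE 0.094, adjusted p = 0.00985). Both were without overlap and both lost their call with DESeq2 (0.113 and 0.0859) and with a library left out (highest adjusted p 0.135 and 0.0842). *Cacng8* (106 and 107 against 125 and 165, log2 fold change 0.43) and *Cacng5* (14.3 and 10.2 against 24.7 and 21.9, 0.89) were above the controls in both *Dnmt1* KO libraries without passing (adjusted p = 0.103 and 0.17). *Cacng1* had 0.895 and 0 against 2.96 and 8.74 and, with *Cacng6*, was below the filter.

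Sodium channel beta subunits are adhesion proteins that bind the pores. *Scn2b* had normalized counts of 86.8 and 79.6 in the controls and 123 and 125 in the *Dnmt1* KO (0.57, SE 0.17, adjusted p = 0.034). The groups did not overlap, but the call was lost with any library left out (highest adjusted p 0.154) and with DESeq2 (0.315). *Scn3b*, the most abundant of them, had 862 and 765 against 889 and 921 (0.16, adjusted p = 0.191). *Scn4b* was below the filter.

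The 9 members below the filter were *Cacna1f*, *Cacna1s*, *Scn4a*, *Scn7a*, *Scn11a*, *Cacna2d4*, *Cacng1*, *Cacng6* and *Scn4b*, with normalized counts of 0 to 8.74 in any library. Most of them are known from muscle, retina or sensory neurons. A difference in these genes was not detectable at this depth.

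Called with all 4 libraries and also with each one left out were 10 members higher and 1 lower, where the background was 3.46% and 3.5%. The 10 were the pores *Scn1a*, *Scn2a*, *Scn3a*, *Cacna1b*, *Cacna1c*, *Cacna1d* and *Cacna1i* and the auxiliary genes *Cacnb4*, *Cacng2* and *Cacng3*, and the 1 lower was *Cacna2d1*.

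Channel genes are long, and in these libraries fold changes moved with transcript length. Over all tested genes the log2 ratio of a *Dnmt1* KO to a control library rose by 0.054 to 0.056 per doubling of transcript length, against 0.00064 to 0.0017 between libraries of the same genotype. The tested members had a median transcript of 7.3 kb and a median genomic span of 120.4 kb, compared with 3.52 kb and 23.8 kb for all tested genes. With the trend on length and GC content removed, 20 members were higher and 1 lower (background 10.4% and 7.71%) and their median log2 fold change was 0.35. *Scn1a* had 0.81, *Scn3a* 0.26, *Cacna1b* 0.52 and *Cacna2d1* -1.34 in that fit. Across the 32 members, Pearson's r between log2 fold change and log2 transcript length was 0.014 (Spearman's rho 0.15). Without *Cacna2d1* Pearson's r was 0.11, compared with 0.12 over all tested genes. With log2 genomic span Pearson's r was 0.022 across the 32 members and 0.24 without *Cacna2d1*, compared with 0.027 over all tested genes. These are descriptions only, since genes are not independent replicates.

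Among 26 genes of proteins that anchor or tune these channels, 23 were tested, 7 were higher and 0 lower (median log2 fold change 0.20; 10 higher and 0 lower at an unadjusted p under 0.05, and 0 lower with edgeR or DESeq2). The background for the calls at an adjusted p under 0.05 is again 8.3% higher and 8.99% lower. None was counted for the unadjusted p. Of the genes for scaffolds of the presynaptic active zone, where calcium channels sit, *Pclo* had normalized counts of 2548 and 2461 in the controls and 3768 and 3729 in the *Dnmt1* KO (0.58, SE 0.049, adjusted p = 1.4e-06), and *Rims1* (0.35), *Rims2* (0.29) and *Erc2* (0.31) were also called, *Rims2* not with every library left out (highest adjusted p 0.0597). *Rimbp2* overlapped between genotypes, with 218 and 207 against 191 and 272, and did not pass (0.10, adjusted p = 0.711). *Fgf12*, an intracellular partner of sodium channels, had 126.2 and 125.6 against 210.1 and 244 (0.84, SE 0.14, adjusted p = 0.0007), and *Fgf13* (0.31, adjusted p = 0.0309) was called by limma but not with DESeq2 (0.222) or with every library left out (highest adjusted p 0.21). Their relatives *Fgf11* (0.20, adjusted p = 0.367) and *Fgf14* (-0.04, adjusted p = 0.911) did not pass. *Unc79*, a partner of the leak channel, had 643 and 759 against 945 and 930 (0.42, adjusted p = 0.00261), whereas *Unc80* had a log2 fold change of 0.29 that did not pass (adjusted p = 0.245). *Ank3* and *Ank2*, the ankyrins that hold sodium channels in axons, were among the partners not called, with log2 fold changes of 0.13 and -0.053 (adjusted p = 0.065 and 0.533). With the length and GC trend removed, *Ank3* passed (0.17, limma adjusted p = 0.019) and *Ank2* did not (-0.053, limma adjusted p = 0.505).

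Of 20 genes that store or remove calcium inside the cell 19 were tested, and 2 were higher and 2 lower (median log2 fold change 0.0086), which is near the background of 8.3% and 8.99% (1 and 1 with DESeq2). *Ryr2*, a calcium release channel, had normalized counts of 432 and 317 in the controls and 769 and 695 in the *Dnmt1* KO (0.98, SE 0.12, adjusted p = 4.56e-05), and *Atp2b1*, a calcium pump, was higher by 0.28 (adjusted p = 0.027), a call lost with DESeq2 (0.145) and with a library left out (highest adjusted p 0.204). *Itpr1*, another release channel, had 155 and 179 against 94.7 and 92.9 (-0.82, SE 0.16, adjusted p = 0.0024), and *Orai3*, a store-operated channel, was lower by limma (-1.44, adjusted p = 0.0256; DESeq2 0.202).

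REST is a repressor that silences many neuronal channel genes in cells that are not neurons. Of the 9 genes of its complex tested, 0 were higher and 1, *Hdac1*, was lower (-0.37). Both counts are near the background of 8.3% higher and 8.99% lower. *Hdac1* no longer passed once the length and GC trend was removed. At an unadjusted p under 0.05, for which no background was counted, 0 were higher and 2 lower. With edgeR or DESeq2, 0 were higher.

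**Figure D4:**
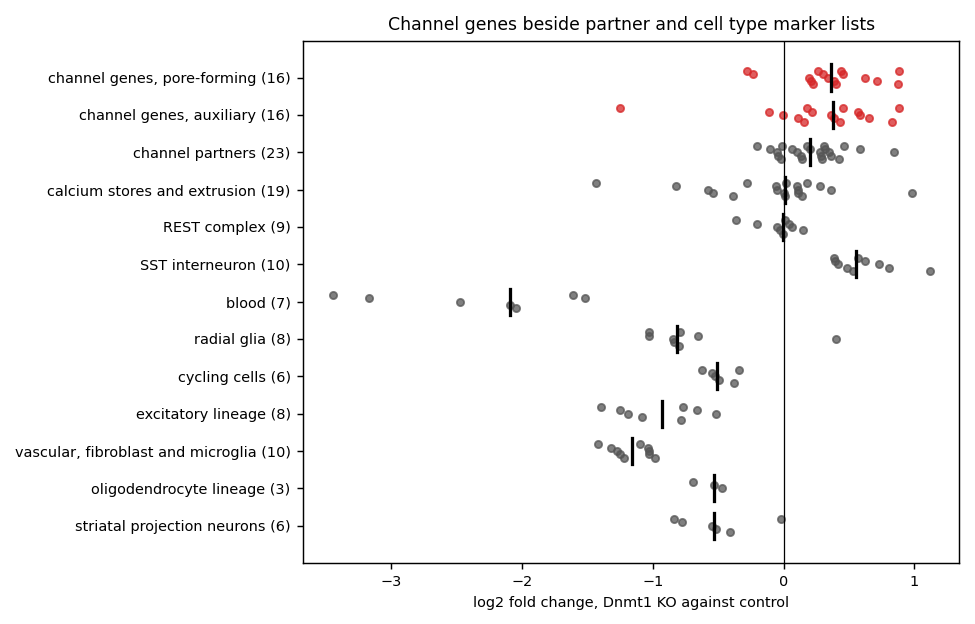
Log2 fold changes of the tested genes in each list, 1 point per gene, with the median of each list as a vertical bar and its number of genes in brackets. The channel genes (medians 0.36 for pore-forming and 0.37 for auxiliary) lie mostly and the SST interneuron markers (0.55) all above 0, and the markers of blood, vascular, excitatory and radial glial cells lie mostly below it.

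DNMT1 acts on CG dinucleotides, and the promoters of the members differed in how many they hold. In RefSeq promoters of 300 bases (250 before to 50 after the start, GRCm38.p6, the start richest in CG per gene), 31 of the 41 members had an entry, and CG was counted on 1 strand, since it reads the same on both. The 24 tested members had a median of 21.5 CG, compared with 23 over 9982 tested genes, and 70.8% of them held at least 10 CG, compared with 89.3% of those genes and 45.8% of all promoters in the table. The 15 members called higher ranged from 2 (*Scn2b*) to 63 (*Cacna1d*) with a median of 20, the 8 not called had a median of 23, and the 7 below the filter a median of 5. The last 30 bases before the start are shown for genes with large differences, with CG in capitals. Over the whole window *Cacna2d1* had 42 CG, *Cacna1i* 23 and *Cacng3* 9.
Cacna2d1 (lower): CGccccctcCGccccCGcccCGccccCGcc
Cacng3 (higher): ccCGtctgtcactgaatctacccctccaac
Cacna1i (higher): cCGagcctgcagctttcccCGaagacattt
They are chr5:15934661-15934690 (plus strand) for *Cacna2d1*, chr7:122671714-122671743 (plus) for *Cacng3* and chr15:80287208-80287237 (plus) for *Cacna1i*, all on GRCm38.p6. Methylation at these bases was not analysed here.

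Some members overlap other genes. The study names a stranded library kit, but whether reads were counted by strand is not given in the sources used here. Reads of overlapping genes could therefore be shared. *Dcp1a*, opposite *Cacna1d*, had a log2 fold change of 0.036 (adjusted p = 0.885) and *Dcp1b*, opposite *Cacna1c*, 0.33 (adjusted p = 0.205).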

How the data were processed

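Trim Galore (trimming), STAR (alignment, GRCm39), Salmon (quantification) and DESeq2 (size factors) were the tools of the authors, from the submitters' processing notes and the study's methods. The deposited signal holds DESeq2-normalized counts, with 1 column for each library. Every value above 0 was a whole multiple of 1 unit per library (100%, tolerance 0.0001 of a read), so whole reads were recovered. Library preparation used a stranded kit for total RNA with rRNA depletion.

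Log2(normalized count + 1) of genes with a mean of at least 10 was fitted with limma 3.58.1 (variance trend, 2 control against 2 *Dnmt1* KO libraries) in R 4.3.3, with Benjamini-Hochberg adjustment over all 14323 genes and calls under 0.05. The pseudocount slightly shrinks fold changes of low genes. Alternatives were edgeR 4.0.16, DESeq2 1.42.0 and limma-voom on the recovered reads, other pseudocounts, filters and scalings, no variance trend, removal of a length and GC trend (spline, 5 df), a replicate block and leaving out each library. All 41 members enter the counts, but 2 tested members are not reported by name here. Genes named beyond them are the called members of the lists of partners, calcium stores and REST genes, with a few not called. The members and lists were chosen with earlier results of these data known.

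The study describes 2 separately processed samples per genotype, and the labels do not say whether they share embryos. Replicate counts differed beyond counting noise (chi-square per degree of freedom 2.71 in controls and 2.31 in the *Dnmt1* KO), and p-values measure only the spread between these libraries, which may be technical. The 10 most abundant genes took 16.8% to 17.8% of reads and mitochondrial genes 5.87% to 7.03%. No batch is given in the labels. Annotation was GENCODE on GRCm39.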

Additional observations from a re-analysis of the deposited data

How the results depend on the processing

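Without a variance trend, limma called 0 of the 14323 genes (smallest adjusted p 0.0592), so the counts of members higher, lower and called either way, and of pore-forming and auxiliary members higher, were all 0, while 18 members were higher and 1 lower at an unadjusted p under 0.05 (10.5% and 12.8% of all genes). With DESeq2 1160 genes passed instead of 2476 (edgeR 2528, limma 1525 without control 2 and 1648 without control 1), and 9 members were higher instead of 19 (6 pore-forming instead of 12, 3 auxiliary instead of 7), and 10 were called either way instead of 20. With a library left out, 14 to 16 members were higher and 1 lower (9 to 11 pore-forming and 4 to 7 auxiliary higher, 15 to 17 called either way). The 4 auxiliary genes were found without control 2 and without *Dnmt1* KO 2. A fit with a replicate block gave 20 higher, and 23 with the length and GC trend removed as well. The deviations of same-numbered libraries correlated at -0.085 over genes. With 2 libraries per genotype this value cannot decide whether the numbers pair the libraries. *Scn10a* turned to 0.14 without control 1 and 0.41 without *Dnmt1* KO 2 (range with a library left out -0.87 to 0.41), and *Cacnb1* to 0.065 with the length and GC trend removed (with or without the block), 0.084 without control 1 and 0.011 without *Dnmt1* KO 2 (range -0.089 to 0.084), and none of these passed a test. Of 540 values for single members under alternatives 471 kept their direction and their side of the threshold, 53 no longer passed, 10 newly passed and 6 changed sign. A filter at a mean of 50 left 28 members tested, without *Scn10a* and *Cacng5* among others. The cause of these differences was not tested.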
